A study of Mus musculus with 12 samples.

Results

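The 7 T cell costimulation ligand genes examined here were Cd40, Cd80, Cd86, Cd83, Cd274, Pdcd1lg2 and Icosl. They were chosen by name, as a family of surface proteins with which antigen-presenting cells steer T cells. Earlier results of these data were known when they were chosen. All 7 were among the 23329 genes listed in the count tables. The cells were primary stromal cells of the small intestine, labelled intestinal myofibroblast, grown from C57BL6/J mice as embryos (E14.5) or as adults. At passages 2 to 3 the cultures were exposed for 6 hours to lipopolysaccharide (LPS) of Escherichia coli O111:B4, at 10 µg/µl as labelled, or to PBS as the control. Each of the 4 groups (embryonic PBS, embryonic LPS, adult PBS and adult LPS) had 3 polyA-selected, strand-specific mRNAseq libraries. Embryonic cultures came from pooled embryos and adult cultures from separate mice.

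A T cell that meets its antigen needs further surface signals, and these genes encode most of the classical ones. CD40 is a receptor of the TNF receptor family that answers to CD40 ligand on activated T cells. CD80 and CD86 bind CD28, which promotes activation, and CTLA-4, which restrains it. CD83 is a maturation marker of dendritic cells that stabilises surface MHC class II and CD86, ICOSL binds ICOS, and PD-L1 (Cd274) and PD-L2 (Pdcd1lg2) bind the inhibitory receptor PD-1. LPS is sensed by Toll-like receptor 4 and is known to raise several of these genes in macrophages and dendritic cells. In fibroblasts and myofibroblasts of the gut, CD40 and PD-L1 are known surface proteins.

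The libraries held between 18850224 and 32672370 counts on genes. A level of 3 counts, taken as the detection floor, corresponded to 0.0897 to 0.145 CPM, the unit in which counts are scaled to a common library size, depending on the library. Fibroblast markers (8 genes, collagens and PDGF receptors among them) summed to between 8130 and 23581 CPM in every library, and 6 myofibroblast and smooth muscle markers summed to between 14141 and 34522 CPM. Markers of other cell types were present beside them. The summed level of 10 macrophage markers was 185, 284 and 1845 CPM in embryonic PBS replicates 1 to 3 and 120, 605 and 1234 CPM in embryonic LPS replicates 1 to 3, against 37.2 to 91.3 CPM in the 6 adult libraries. Embryonic replicate 3 thus had the highest sum under both treatments. The sum of 7 endothelial markers was 1831 and 1756 CPM in both libraries of adult replicate 2 and 384 and 357 CPM in those of adult replicate 3, against 10.2 to 35.2 CPM elsewhere. The T cell markers Cd3e and Cd3g and the dendritic cell markers Flt3, Clec9a and Cd209a had 2 counts or fewer in every library. Less specific genes of the same lists were present, with up to 584 counts in a library for Zbtb46, 322 for Itgax, 223 for Ccr7, 111 for Cd4 and 41 for Lck. The summed level of 8 dendritic cell markers was 5.35 to 21.2 CPM and that of 6 T cell markers 0.121 to 3.68 CPM. In bulk RNA, fewer cells of a type and less RNA per cell cannot be told apart.

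By the RefSeq annotation of GRCm38.p6, Cd40 lies on chromosome 2 (165055614 to 165071654), Cd83 on chromosome 13 (43785112 to 43803133) and Icosl on chromosome 10 (78069368 to 78079525). Cd80 (38457430 to 38495958) and Cd86 (36568956 to 36666158) lie on chromosome 16, 1791.3 kb apart and on opposite strands. Both PD-1 ligand genes lie on the forward strand of chromosome 19, with Cd274 at 29362107 to 29388095 and Pdcd1lg2 at 29410919 to 29472927. They are separated by 22.8 kb with no annotated gene wholly between them. Because Cd274 passed the test of the LPS response in both stages and its neighbour stayed at the detection floor, their RefSeq start-site windows are shown (250 bases before to 50 after an annotated start, GRCm38.p6, forward strand). For Cd274 this is chr19:29367188-29367487, around a start inside the annotated span, and for Pdcd1lg2 it is chr19:29410669-29410968.
Cd274: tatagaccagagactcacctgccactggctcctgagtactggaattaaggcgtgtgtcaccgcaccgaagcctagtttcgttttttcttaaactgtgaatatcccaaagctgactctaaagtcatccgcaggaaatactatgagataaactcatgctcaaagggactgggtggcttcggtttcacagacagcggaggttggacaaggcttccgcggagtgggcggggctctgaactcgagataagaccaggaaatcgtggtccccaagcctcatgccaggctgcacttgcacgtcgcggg
Pdcd1lg2: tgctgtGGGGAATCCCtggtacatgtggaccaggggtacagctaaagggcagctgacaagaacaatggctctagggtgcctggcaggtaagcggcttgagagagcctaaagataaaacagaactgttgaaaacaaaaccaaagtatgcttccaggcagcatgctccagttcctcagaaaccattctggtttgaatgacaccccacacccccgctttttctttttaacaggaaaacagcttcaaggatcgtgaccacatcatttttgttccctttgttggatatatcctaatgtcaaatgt
The capitals mark a match to the NF-kB consensus, GGGGAATCCC, which reads as a match on both strands, from base -244 to base -235 relative to the Pdcd1lg2 start. Both strands were searched for each motif. Matches to this motif were found in 4.51% of 32851 RefSeq promoter windows of the same length. The core of the interferon-stimulated response element (3.44% of windows), the STAT core TTCNNNGAA (8.3%) and the letters TATAAA (13.6%) had no match in either window. Of the other ligands with a window in the RefSeq table, Icosl held none of the 4 motifs and Cd80 held TATAAA on the reverse strand only. A match is a description of letters and not a site of binding.

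Cd274 rose with LPS in both stages. In embryonic stroma, Cd40, Cd274 and Icosl passed the test, which is 3 of the 6 ligands that could be tested, against 1.87% of the 13038 tested genes that rose. In adult stroma only Cd274 did, against 0.422% of tested genes. A rise was called at an adjusted p under 0.05 and a log2 fold change of at least 2, with edgeR's quasi-likelihood test and Benjamini-Hochberg adjustment over all tested genes. A second fit took the replicate number of the sample titles as a block, which compares each LPS library with the PBS library of the same number. That same-numbered libraries share a culture was inferred from the data and is stated by no label. With the block, Cd40, Cd86, Cd83, Cd274 and Icosl rose in embryonic stroma (5 of 6, against 3.02% of tested genes). In adult stroma Cd40, Cd83, Cd274 and Icosl rose (4 of 6, against 1.60%). The median log2 fold change of the 6 tested ligands was 4.24 in embryonic and 3.57 in adult stroma, whereas that of all tested genes was 0.00 and -0.01. Pdcd1lg2 was too low to be tested, since no group had all 3 of its libraries above 0.5 CPM.

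Cd40 stood at 20.5, 5.27 and 6.31 CPM in embryonic PBS replicates 1 to 3 and at 97.7, 121 and 442 CPM in embryonic LPS replicates 1 to 3. In adult stroma it stood at 0.513, 2.94 and 1.09 CPM under PBS and at 19.0, 20.3 and 11.3 CPM under LPS. The treatments did not overlap in either stage, and embryonic LPS replicate 3 was the highest library. The log2 fold change was 4.36 (SE 0.83, adjusted p = 0.0202) in embryonic stroma. The adult value was 3.51 (SE 0.84, adjusted p = 0.133), which passed the threshold only with the block, at 3.58 (SE 0.82, adjusted p = 0.0426). The embryonic call was lost when embryonic LPS replicate 3 or embryonic PBS replicate 2 or 3 was left out, with an adjusted p of up to 0.0822. The embryonic log2 fold change lay between 3.31 without embryonic LPS replicate 3 and 5.23 without embryonic PBS replicate 1.

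Cd80 and Cd86 encode ligands of the same receptors, CD28 and CTLA-4. Cd80 was expressed in every library. It measured 2.95, 5.09 and 2.42 CPM in embryonic PBS replicates 1 to 3 and 6.52, 9.29 and 33.4 CPM in embryonic LPS replicates 1 to 3. In adult stroma it measured 9.16, 7.81 and 13.1 CPM under PBS and 14.3, 10.6 and 17.8 CPM under LPS. The embryonic groups did not overlap and the adult groups did. Cd80 passed the full threshold in neither stage, with a log2 fold change of 2.23 (SE 0.58, adjusted p = 0.0818) in embryonic and 0.50 (SE 0.55, adjusted p = 1) in adult stroma. With the block the embryonic value was 1.90 (SE 0.51, adjusted p = 0.047), below the fold required, and 0.96 (SE 0.15, adjusted p = 0.00608) when both embryonic replicate 3 libraries were also left out.

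In adult stroma, Cd86 had the lowest mean CPM of the tested ligands under LPS, and the lowest except for Cd83 under PBS. It measured 0.293, 0 and 0.0682 CPM in adult PBS replicates 1 to 3, from 10 counts in all, and 1.20, 0.369 and 0.259 CPM in adult LPS replicates 1 to 3, from 55 counts. The ratio of these pooled counts, after scaling to library size, was 4.93, with a 95% exact interval of 2.49 to 10.8 that covers counting error alone. The adult log2 fold change was 2.25 (SE 1.44, adjusted p = 1), and 2.28 (SE 0.74, adjusted p = 0.143) with the block. In embryonic stroma Cd86 measured 1.12, 1.01 and 11.0 CPM under PBS and 5.78, 16.0 and 50.6 CPM under LPS. These groups overlapped because the PBS library of replicate 3 lay above the LPS library of replicate 1, although each LPS library lay above the PBS library of its own number. The log2 fold change was 2.46 (SE 1.12, adjusted p = 0.473) without the block and 2.77 (SE 0.34, adjusted p = 0.0016) with it. It was 3.18 (SE 0.40, adjusted p = 0.00184) with the block when both embryonic replicate 3 libraries were left out.

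Cd83 and Icosl moved from near the floor in adult stroma. Cd83 had 2, 1 and 3 counts in adult PBS replicates 1 to 3 and 363, 113 and 124 counts in adult LPS replicates 1 to 3, the latter at 11.8, 3.47 and 5.36 CPM. The adult libraries held 600 pooled counts under LPS and 6 under PBS, a ratio of 89.6 after scaling to library size, with a 95% exact interval of 40.9 to 245 for counting error. The fitted adult log2 fold change was 6.40 (SE 1.52, adjusted p = 0.131), and 6.43 (SE 0.26, adjusted p = 9.91e-06) with the block. In embryonic stroma Cd83 measured 0.904, 1.89 and 11.6 CPM under PBS and 17.2, 41.7 and 193 CPM under LPS. Replicate 3 was the highest of each embryonic group, and the difference within a pair of same-numbered libraries kept to a narrow band, 4.05 to 4.41 on the log2 CPM scale. The embryonic log2 fold change was 4.13 (SE 1.10, adjusted p = 0.0926) without the block and 4.23 (SE 0.14, adjusted p = 8.69e-07) with it.

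Icosl measured 1.08, 0.945 and 9.42 CPM in embryonic PBS replicates 1 to 3 and 42.1, 26.9 and 169 CPM in embryonic LPS replicates 1 to 3. In adult stroma it measured 0.366, 0.193 and 0.239 CPM under PBS and 7.26, 7.10 and 5.49 CPM under LPS. The treatments did not overlap in either stage. The log2 fold changes of both stages lay close together, at 4.38 (SE 0.98, adjusted p = 0.0434) in embryonic and 4.60 (SE 1.12, adjusted p = 0.141) in adult stroma. With the block they were 4.64 (SE 0.21, adjusted p = 4.91e-06) and 4.58 (SE 0.30, adjusted p = 0.000123). Without the block the embryonic call was lost when any one of 9 libraries was left out, namely each of the 6 adult libraries, embryonic LPS replicate 3 and embryonic PBS replicates 1 and 2, with an adjusted p of up to 0.166. The embryonic log2 fold change lay between 3.15 without embryonic LPS replicate 3 and 6.28 without embryonic PBS replicate 3.

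Of the PD-1 ligand genes, Cd274 passed the test in both stages and Pdcd1lg2 was not detectable above the floor. The Cd274 estimate was the highest of the 6 ligands in embryonic stroma, whereas in adult stroma those of Cd83 and Icosl were higher. Cd274 measured 0.753, 1.89 and 2.48 CPM in embryonic PBS replicates 1 to 3 and 76.3, 101 and 329 CPM in embryonic LPS replicates 1 to 3. In adult stroma it measured 1.17, 1.30 and 1.50 CPM under PBS and 14.4, 17.1 and 17.7 CPM under LPS. Control levels of the stages thus overlapped, while every embryonic LPS library lay above every adult LPS library. The log2 fold change was 6.62 (SE 0.66, adjusted p = 0.0016) in embryonic and 3.62 (SE 0.59, adjusted p = 0.0248) in adult stroma. The embryonic call held whichever of the 12 libraries was left out, with an adjusted p of at most 0.015 and a log2 fold change between 5.66 without embryonic LPS replicate 3 and 6.995 without embryonic PBS replicate 3. The adult call was lost without any one of the 6 adult libraries, with an adjusted p of up to 0.169, although the log2 fold change stayed between 3.54 and 3.73. Among all tested genes, these fits called 4 to 58 in adult stroma, against 55 with all libraries. With the block the adult value was 3.62 (SE 0.23, adjusted p = 0.000111).

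Pdcd1lg2 had 10 counts in all 12 libraries together and at most 2 in any one. It was at 0 counts in the 3 adult PBS libraries and adult LPS replicate 2, and at 1 or 2 counts in the other 8. Both treatments lay under the floor of 3 counts in both stages, so no fold was formed, and the highest level in any library was 0.0701 CPM.

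**Figure D1:**
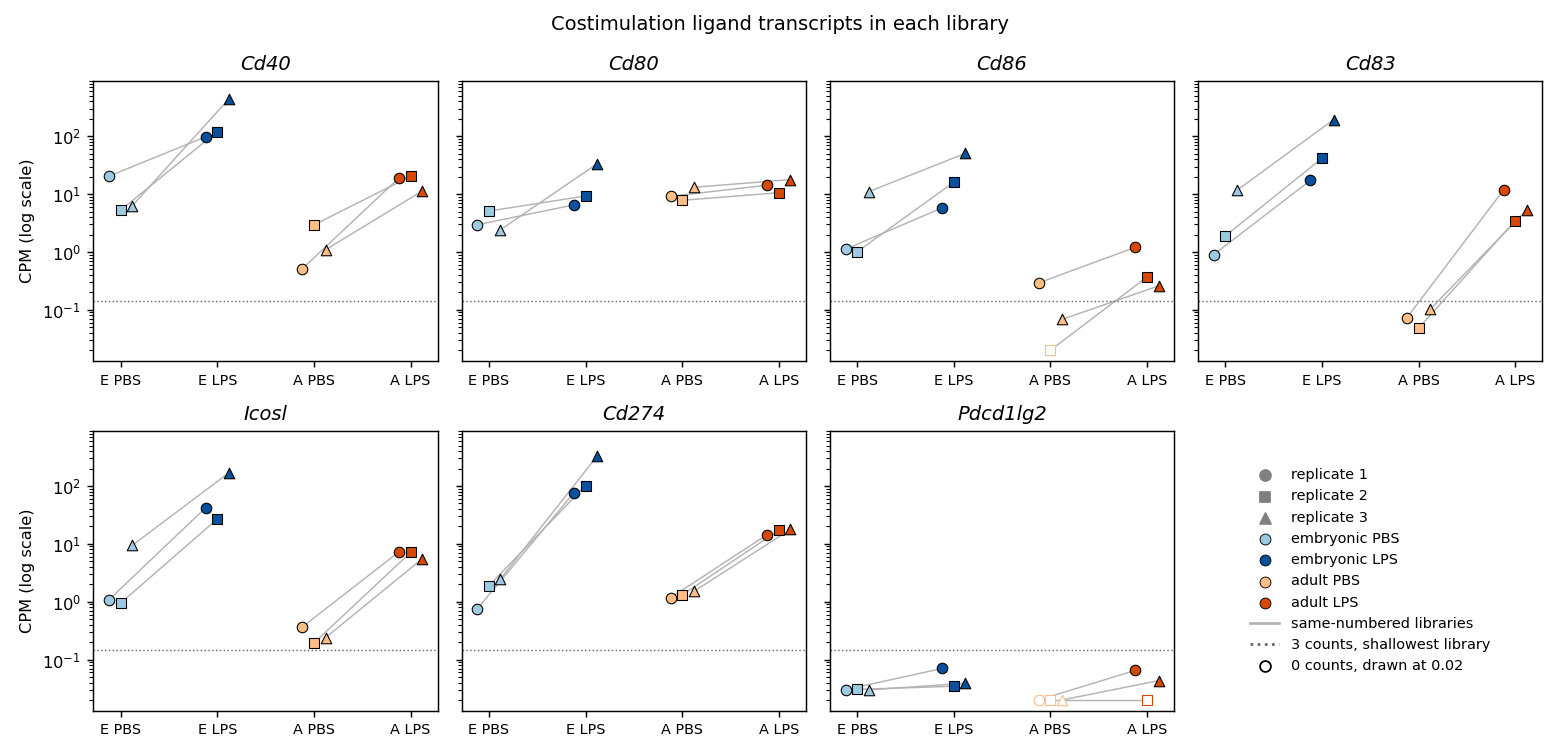
Each panel shows 1 ligand gene, with the level in CPM (log scale) in each of the 12 libraries, E for embryonic and A for adult. Grey lines join same-numbered libraries, the dotted line marks 3 counts in the shallowest library (0.145 CPM), and libraries without counts are drawn open at 0.02. Cd274 climbed from between 0.753 and 2.48 CPM to between 76.3 and 329 CPM in embryonic stroma, Cd80 lay between 7.81 and 17.8 CPM in all adult libraries, and Pdcd1lg2 stayed under the line.

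Among the 6 tested ligands, the smallest LPS difference within a same-numbered pair was that of Cd80 in both stages. It was 0.859 in embryonic and 0.435 in adult stroma on the log2 CPM scale. Every LPS library lay above every PBS library for 5 ligands in embryonic stroma (all but Cd86), as for 7.58% of tested genes, and for 4 in adult stroma (Cd40, Cd83, Cd274 and Icosl), as for 9.10%.

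**Figure D2:**
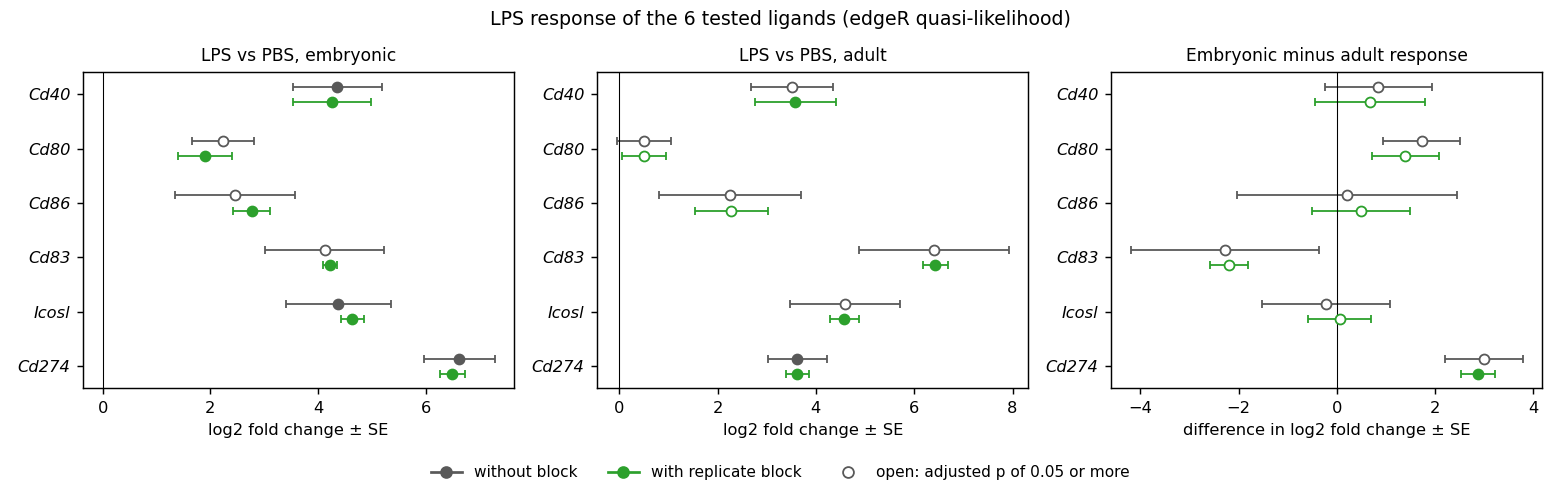
Points give the log2 fold change with its SE for the 6 tested ligands in embryonic stroma (left) and adult stroma (middle), and the difference of the stages in log2 fold change (right), without the block in grey and with the replicate block in green. Filled points have an adjusted p under 0.05. The estimates with and without the block lie close together while the SE is smaller with it for most genes, and in the right panel only Cd274 with the block is filled, at 2.88.

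Whether the stages responded differently was tested as an interaction, the embryonic minus the adult log2 fold change. None of the 6 ligands passed without the block (0% of tested genes did), and 1 had an unadjusted p under 0.05, as did 293 of all tested genes. That ligand was Cd274, with a difference of 3.00 (SE 0.79, adjusted p = 1). With the block Cd274 passed, with an embryonic response higher by 2.88 (SE 0.35, adjusted p = 0.0105), as did 0.844% of tested genes. The pairs behind it did not overlap, since same-numbered libraries differed by 5.69 to 7.01 on the log2 CPM scale in embryonic and by 3.50 to 3.65 in adult stroma. When 1 pair at a time was left out, the blocked difference lay between 2.46 and 3.30. The call then held without any of the embryonic pairs and was lost without any one of the adult pairs, with an adjusted p of 0.0718, 0.0567 and 0.0994 without adult replicates 1, 2 and 3.

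Cd83 leaned the other way, with a difference of -2.28 (SE 1.92, adjusted p = 1) without the block and -2.20 (SE 0.39, adjusted p = 0.0549) with it. This value rests on the 6 counts of the adult PBS libraries. It passed with the block only when embryonic replicate 2 was left out, at -2.31 (SE 0.38, adjusted p = 0.0409). For the other ligands the difference did not pass in either fit. With the block it was 1.40 (SE 0.68) for Cd80, 0.68 (SE 1.12) for Cd40, 0.49 (SE 0.99) for Cd86 and 0.06 (SE 0.64) for Icosl, with adjusted p between 0.622 and 0.994.

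Under LPS, Cd40, Cd86 and Cd274 were higher in embryonic than in adult stroma (3 of 6, against 1.91% of tested genes that were higher in embryonic stroma). The log2 differences were 3.70 (SE 0.80, adjusted p = 0.0294) for Cd40, 5.28 (SE 1.30, adjusted p = 0.046) for Cd86 and 3.36 (SE 0.56, adjusted p = 0.0116) for Cd274. Cd83 at 3.61 (SE 1.08, adjusted p = 0.08) and Icosl at 3.58 (SE 0.94, adjusted p = 0.055) did not pass, and Cd80 stood at 0.21 (SE 0.55, adjusted p = 0.879). Every embryonic LPS library lay above every adult LPS library for 5 ligands, all but Cd80, as for 13.4% of tested genes. The Cd274 call was lost without adult LPS replicate 1 or 3 (adjusted p up to 0.0629). The Cd40 call was lost without any one adult LPS library, adult PBS replicate 3 or embryonic LPS replicate 3 (up to 0.133), and the Cd86 call without any one adult library or embryonic LPS replicate 2 or 3 (up to 0.173). Without embryonic LPS replicate 3 the log2 differences of Cd40, Cd86 and Cd274 were 2.67, 4.10 and 2.41.

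In PBS libraries none of the 6 ligands passed, while 2.23% of tested genes did. An unadjusted p under 0.05 was found for 5 of the 6, and for 2584 of the 13038 tested genes. The log2 difference was 5.89 (SE 1.52, adjusted p = 0.06) for Cd83, 5.07 (SE 1.42, adjusted p = 0.0746) for Cd86, 3.80 (SE 1.11, adjusted p = 0.0842) for Icosl and 2.86 (SE 0.82, adjusted p = 0.0819) for Cd40. These 4 genes were higher in each embryonic PBS library than in each adult one, as were 12.4% of tested genes. Cd80 was the only ligand with the opposite order, lower by 1.52 on the log2 scale in embryonic stroma (SE 0.57, adjusted p = 0.165), with each adult PBS library above each embryonic one, as for 11.9% of tested genes. Cd274 differed by 0.36 (SE 0.58, adjusted p = 0.812). Cd83 passed when embryonic LPS replicate 1 or 3 was left out, with an adjusted p down to 0.0315.

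The summed macrophage markers were higher in embryonic libraries, as were the levels of Cd40, Cd86, Cd83 and Icosl. The sum was at least 120 CPM in each embryonic library and at most 91.3 CPM in each adult one, and all 10 were above the floor in every embryonic library and 9 or 10 in adult ones. Of the 10, Cx3cr1 alone was called between stages under PBS, against 2.23% of tested genes, and none under LPS. Mertk had the opposite sign to the other 9, at -0.71 (adjusted p = 0.764) under PBS and -0.35 (adjusted p = 0.879) under LPS. Under PBS, embryonic replicate 3 had a sum of 1845 CPM against 185 and 284 CPM. It also had the highest Cd86, Cd83, Icosl and Cd274 of its group, at 11.0, 11.6, 9.42 and 2.48 CPM. Cd40 was highest in replicate 1 (20.5 CPM) and Cd80 in replicate 2 (5.09 CPM). The part of the macrophage markers in the stage differences and in the spread between replicates was not tested. Between treatments the sum was lower under LPS in embryonic replicates 1 and 3 (185 against 120 and 1845 against 1234 CPM). It was higher in replicate 2 (284 against 605 CPM). The smallest LPS differences within embryonic pairs, on the log2 CPM scale, were 2.19 for Cd86, 4.05 for Cd83 and 4.16 for Icosl. They were 2.25 for Cd40, 5.69 for Cd274 and 0.859 for Cd80. With the block, 1 of the 10 markers, the fractalkine receptor gene Cx3cr1, fell in embryonic stroma (-2.82, SE 0.35, adjusted p = 0.00155), against 0.383% of tested genes. Adgre1 at 1.08 (SE 0.26, adjusted p = 0.0313) and Spi1 at 1.37 (SE 0.31, adjusted p = 0.0249) were higher under LPS in this fit but below the fold required, and the median of the list was -0.10. In adult stroma none was called, and the sums of replicates 1 to 3 were 91.3, 52.2 and 41.4 CPM under PBS and 88.5, 44.1 and 37.2 CPM under LPS. The endothelial sum ranged from 14.6 to 1831 CPM across adult libraries. Within adult pairs the LPS difference on the log2 CPM scale ranged from 3.50 to 3.65 for Cd274 and 2.76 to 5.04 for Cd40. It ranged from 4.92 to 6.38 for Cd83, 4.07 to 4.77 for Icosl, 1.26 to 2.66 for Cd86 and 0.435 to 0.635 for Cd80. The adult PBS level of Cd40 was highest in replicate 2, which also had the highest endothelial sum. The part of endothelial cells in these values was not tested.

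**Figure D3:**
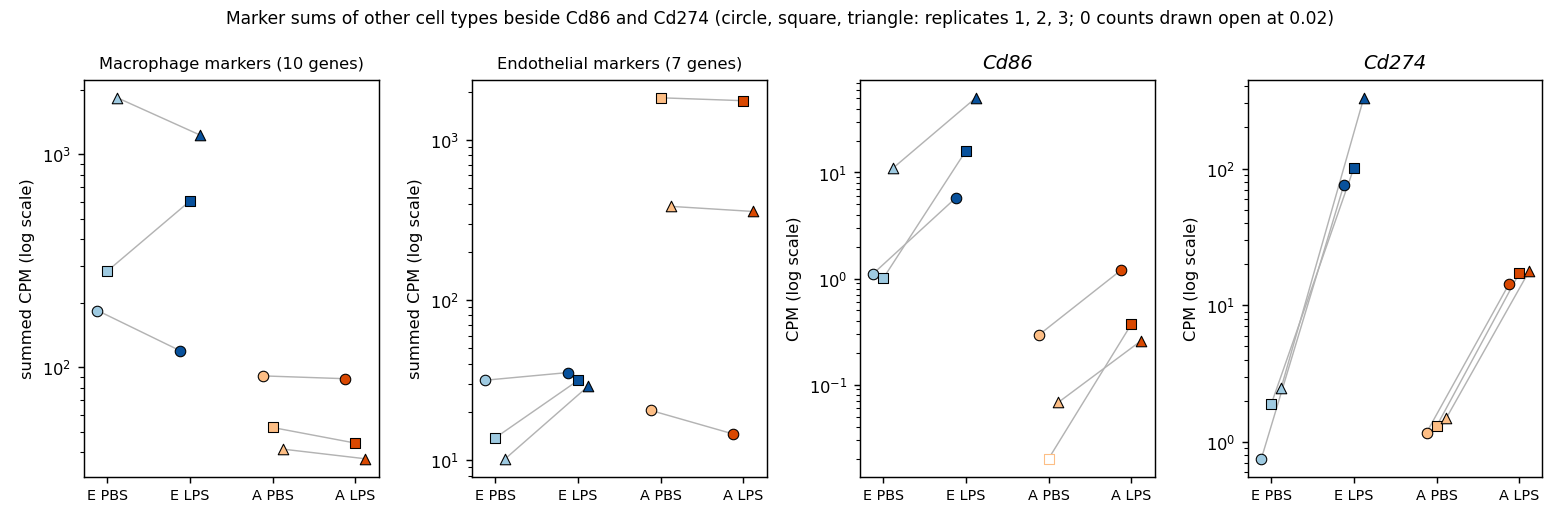
Summed CPM of 10 macrophage and 7 endothelial marker genes, and the CPM of Cd86 and Cd274, in each library (log scales), E for embryonic and A for adult. Grey lines join same-numbered libraries. The macrophage sum went from 185 to 120, 284 to 605 and 1845 to 1234 CPM in embryonic replicates 1 to 3. Cd86 went from 1.12 to 5.78, 1.01 to 16.0 and 11.0 to 50.6 CPM in the same replicates, PBS first. The endothelial sum of adult replicate 2 (1831 and 1756 CPM) was far above that of adult replicate 1. Cd274 stood at 1.30 and 17.1 CPM in adult replicate 2 and at 1.17 and 14.4 CPM in adult replicate 1. The other ligands are not drawn here. The part of macrophages or endothelial cells in these levels was not tested.

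Levels of different genes were compared per length, as CPM per kb of annotated exon, and as shares of the sum of the 7 genes. This sum was 4.68 to 12.8 CPM per kb in embryonic PBS, 68.9, 92.3 and 355 in embryonic LPS replicates 1 to 3, 3.14 to 4.39 in adult PBS and 16.4 to 19.9 in adult LPS. In the embryonic LPS libraries, Cd40 held 38.9% ± 2.58 (SD, n = 3), Cd274 28.8% ± 2.77, Cd83 16.1% ± 5.86, Icosl 9.94% ± 3.48, Cd86 3.64% ± 1.24 and Cd80 2.60% ± 0.100 of the sum. In this order the ranges of Cd83 and Icosl overlapped, as did those of Cd86 and Cd80, and the other neighbours were apart in all 3 libraries.

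In adult stroma the order was another. Cd80 held 73.9% ± 10.2 (SD, n = 3) of the sum under PBS, ahead of Cd40 with 12.5% ± 11.3 and Cd274 with 10.1% ± 0.606, whose ranges overlapped. Under LPS, Cd40 (28.1% ± 7.90), Cd274 (26.1% ± 5.41) and Cd80 (22.0% ± 6.46) overlapped in range. Cd83 (14.6% ± 7.61) ranged from 8.18% to 23.0% and overlapped each of these and Icosl (8.15% ± 1.05), and Cd86 (0.898% ± 0.658) lay below. Embryonic PBS libraries differed most from each other, with Cd40 at 75.9% in replicate 1 and Cd83 the largest at 35.4% in replicate 3. These shares were not tested.

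**Figure D4:**
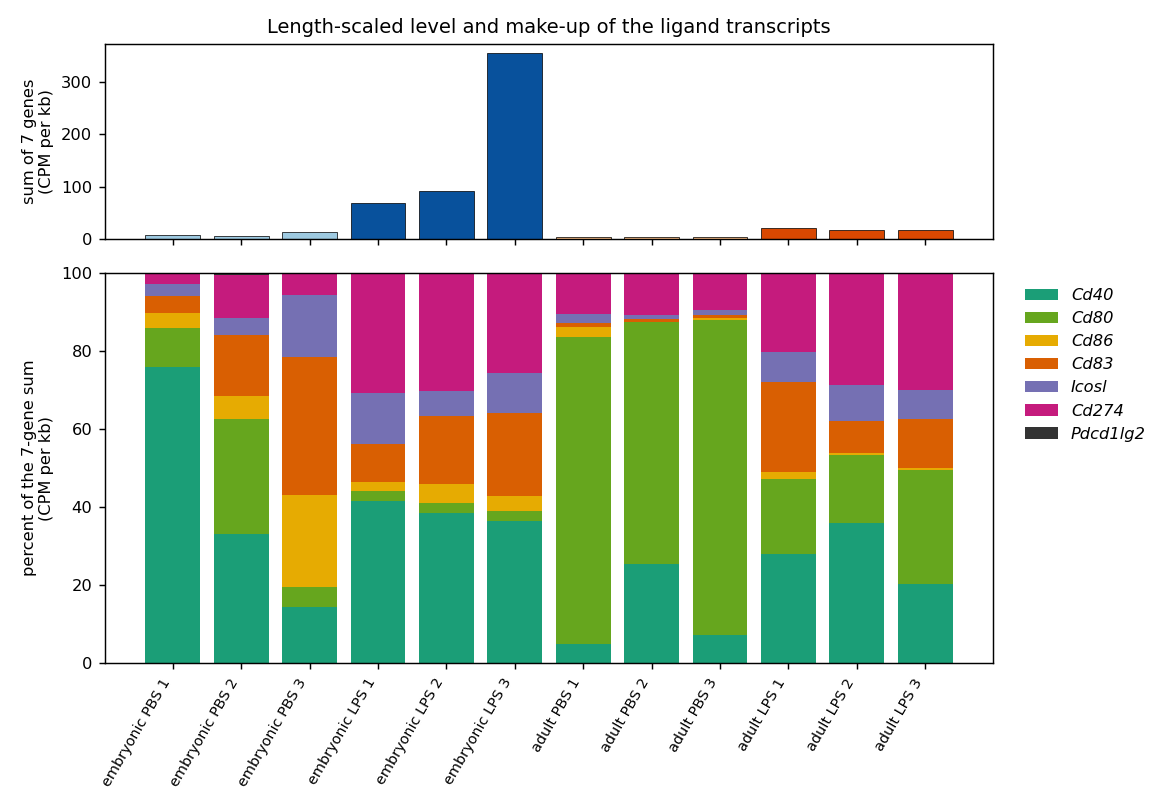
Upper panel, sum of the 7 ligand genes in CPM per kb in each library, from 3.14 to 355. Lower panel, percent of that sum held by each gene, with Cd80 at 62.2% to 80.8% in adult PBS libraries and at 2.54% to 2.72% in embryonic LPS libraries, and Cd40 and Cd274 the largest parts in the latter.

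Several genes that relay the CD40 signal also rose in both stages. Of 10 genes of the CD40 signal relay (adaptors, ubiquitin ligases and the non-canonical NF-kB subunits), all were tested, and 4 rose in embryonic stroma and 3 in adult stroma without the block, against 1.87% and 0.422% of all tested genes. With the block 4 rose in each stage, against 3.02% and 1.60%. None fell, and the list's median log2 fold change was 0.99 in embryonic and 1.03 in adult stroma. The TNF receptor adaptor gene Traf1 measured 0.0301, 0.183 and 0.150 CPM in embryonic PBS replicates 1 to 3 and 11.9, 29.4 and 89.6 CPM in embryonic LPS replicates 1 to 3. Its log2 fold change with the block was 8.38 (SE 0.65, adjusted p = 0.000114) in embryonic and 3.11 (SE 0.53, adjusted p = 0.0138) in adult stroma, where it did not pass without the block (2.96, adjusted p = 0.472). The difference between stages did not pass with the block (5.28, SE 1.00, adjusted p = 0.0752). Both PBS groups were low for Traf1, with 1 count in the lowest embryonic library and 0 CPM in the lowest adult one. Its adult levels were 0 to 1.59 CPM under PBS and 4.82 to 7.01 CPM under LPS. Birc3, a ubiquitin ligase bound by TRAF proteins, rose by 3.40 (SE 0.31, adjusted p = 0.000916) and 2.45 (SE 0.30, adjusted p = 0.00683) in embryonic and adult stroma. Relb, a subunit of non-canonical NF-kB, rose by 2.71 (SE 0.29, adjusted p = 0.00188) and 2.05 (SE 0.29, adjusted p = 0.0128).

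Of 14 other genes for costimulatory and coinhibitory ligands, 11 were tested. Without the block 1 rose in embryonic stroma and none in adult stroma, against 1.87% and 0.422% of all tested genes. With it 4 and 3 rose, against 3.02% and 1.60%, and none fell in either fit. Their median log2 fold change in embryonic stroma was 0.75 (0.25 in adult stroma), beside 4.24 (3.57) for the 6 tested ligands. Icam1, whose protein binds LFA-1 on T cells, measured 19.0, 54.9 and 29.9 CPM in embryonic PBS replicates 1 to 3 and 433, 459 and 1306 CPM in embryonic LPS replicates 1 to 3. It rose by 4.41 (SE 0.63, adjusted p = 0.00603) in embryonic stroma, and in adult stroma passed only with the block, at 3.16 (SE 0.41, adjusted p = 0.00363). Tnfsf4 (OX40 ligand) rose with the block by 2.72 (SE 0.36, adjusted p = 0.00235) in embryonic and 3.30 (SE 0.46, adjusted p = 0.00505) in adult stroma. Tnfsf9 (4-1BB ligand) rose with the block by 2.25 (SE 0.44, adjusted p = 0.0149) and 2.67 (SE 0.48, adjusted p = 0.0181).

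Of 5 genes for the T cell receptors of these ligands, Cd28 alone was tested. It measured 1.60, 18.3 and 5.77 CPM in embryonic PBS replicates 1 to 3 and 2.63, 27.6 and 2.99 CPM in embryonic LPS replicates 1 to 3, with 1.45 to 7.13 CPM in adult libraries. Embryonic replicate 2 was highest under both treatments, and Cd28 was not called for LPS in either stage. Icos had at most 22 counts in a library, Ctla4 and Pdcd1 had at most 1 count in any library and Cd40lg had 0 counts in all 12. Of 7 genes of MHC class II presentation, through which the antigen signal is given, 4 were tested. Only 1 was called, with the block and in embryonic stroma only, where 3.02% of tested genes rose. This was Cd74, the invariant chain, at 0.422, 0.274 and 0.897 CPM in embryonic PBS replicates 1 to 3 and 2.38, 1.80 and 5.40 CPM in embryonic LPS replicates 1 to 3 (2.58, SE 0.25, adjusted p = 0.00042). In adult stroma Cd74 stood at 1.96 (SE 0.31, adjusted p = 0.0102) with the block, just below the fold required, and the difference between stages did not pass (0.62, SE 0.43, adjusted p = 0.757). None of 6 genes that control the surface turnover of PD-L1 and CD86, was called in either stage, with or without the block.

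The tested genes whose profiles lay nearest to each ligand over the 12 libraries differed between ligands. Likeness was measured as the root mean square difference of log2 CPM after centring each gene, so that 0 is an identical profile. Nearest to Cd274 were Gm4951 (0.561) and the interferon-induced helicase gene Ddx60 (0.565). Nearest to Cd86 were the lysosomal transporter gene Slc15a3 (0.456) and the IL-10 receptor gene Il10ra (0.525). Cd80 lay nearest to the exonuclease gene Isg20 (0.368) and the peptidoglycan sensor gene Nod1 (0.437). Cd40 lay nearest to Slfn2 (0.824) and Tnfsf4 (1.01), Icosl to the nucleic acid sensor gene Zbp1 (0.769) and Slfn2 (0.794), and Cd83 to the inflammasome gene Nlrp3 (0.77) and to Icosl itself (0.834). Within the family, Cd83 and Icosl were the closest pair, and Cd80 and Cd83 the farthest, at 3.13. The values are descriptions over libraries that were taken to share 3 cultures in each stage.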

How the data were processed

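Reads had been trimmed, aligned by the authors to GRCm38.p6 with STAR and retained if they mapped uniquely and with no more than 1 mismatch. The deposited tables give raw counts per gene for 1 library each, without normalization, over both strands and for each strand. The sense strand was used here, the opposite strand holding 1.14% to 1.98% of counts. Testing was done with edgeR 4.0.16 (R 4.3.3), DESeq2 1.42.0 served as an alternative, and figures were drawn with matplotlib 3.10.9. A gene was tested if at least 1 group had every library over 0.5 CPM. The 4 groups entered 1 model with TMM factors (0.899 to 1.10), computed on the tested genes. The SE is the absolute log2 fold change over the square root of F. CPM uses TMM-scaled library sizes, and log2 CPM a prior count of 2. The fitting code was also run on simulated counts with planted changes, which does not measure the rate of false calls in these data.

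No library duplicated another, the chi-square per gene within a group being 33.2 to 295. Same-numbered LPS and PBS libraries deviated together from their group means (correlation 0.710 to 0.784 in embryonic and 0.610 to 0.850 in adult stroma). The numbers, taken from the sample titles, were therefore used to pair the libraries by culture, which no label states. Named beside the ligands were the 3 largest changes among genes called with the block in each list, genes with at most 3 counts in every library, and the 2 nearest profiles of each ligand. Cd28, Icos and the single marker genes were named after their values were seen. The ligands and lists were chosen with earlier results of these data known. Start-site windows and coordinates are from RefSeq, and lengths from GENCODE M21 exons.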

Additional observations from a re-analysis of the deposited data

Results flagged for a closer look

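The LPS response of Cd274 differed between stages by 2.88 on the log2 scale (SE 0.35, n = 3 cultures in each stage, adjusted p = 0.0105 by edgeR's quasi-likelihood test with the replicate block), higher in embryonic stroma. It was the only one of the 6 tested ligands for which the test of the difference itself passed. Without the block the difference was 3.00 (adjusted p = 1). With the block and 1 adult culture left out it no longer passed (adjusted p 0.0567 to 0.0994).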

How the results depend on the processing

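The number of ligands called moved with the fit. So did the number called among all tested genes, which is given after the ligand counts. In embryonic stroma, 3 were called, against 5 with the replicate block, 5 with DESeq2, 1 at an adjusted p under 0.01, 0 when only the 6 libraries of the stage were fitted and 5 when the block was added to these, and 1 to 5 when 1 library was left out. In adult stroma, 1 was called, against 4 with the block, 4 with DESeq2, 0 at an adjusted p under 0.01, 3 with only the 6 libraries of the stage, 4 with the block added to these, and 0 to 2 when 1 library was left out. For the interaction, 0 were called without the block, 1 with it and 0 with the block across both stages, where Cd274 stood at 2.83 (adjusted p = 0.92). Between stages under PBS, 0 were called, against 1 with the block across both stages, 4 with DESeq2 and 0 to 1 when 1 library was left out. Between stages under LPS, 3 were called, against 5 with DESeq2, 0 at an adjusted p under 0.01 and 0 to 5 when 1 library was left out. Among all tested genes, 291 were called between stages under PBS and 385 under LPS, against 695 and 761 with DESeq2. Leaving out 1 library gave 110 to 382 under PBS and 85 to 467 under LPS. The block across both stages gave 362 under PBS, and an adjusted p under 0.01 gave 64 under LPS. The block changed no other ligand call than those given beside the results. A block within each stage could not be fitted for the comparisons between stages. Of the 13038 tested genes, 251 were called in embryonic stroma. The count was 444 with the block, 379 with DESeq2 and 103 at an adjusted p under 0.01. Its 6 libraries alone gave 4 of 12620, and 384 with the block. In adult stroma 55 were called, against 211, 170 and 15 in that order. Its 6 libraries alone gave 124 of 12543, and 194 with the block. When 1 library was left out, 84 to 303 genes were called in embryonic and 4 to 91 in adult stroma.

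Alternatives chosen after seeing the data left out both libraries of 1 culture. The ligand count then lay between 1 and 3 in embryonic stroma and between 0 and 3 in adult stroma. With the block it lay between 5 and 6, between 3 and 4, and for the interaction between 0 and 2. Among all tested genes, 103 to 190 were then called in embryonic and 2 to 116 in adult stroma. With the block these were 375 to 510 and 144 to 230, and 34 to 164 for the interaction. TMM factors from all listed genes, also added later, changed no count by over 1.5 times.

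The direction of the LPS response did not turn for any ligand in any alternative run. The sign of an interaction near 0 did. For Icosl it was -0.22 and became 0.061 with the block, and lay between -1.44 and 1.69 when 1 library was left out. For Cd40 it lay between -0.19 and 1.72, and for Cd86 between -1.39 and 2.25. Without 1 culture, Cd40 reached -0.46, and -0.31 with the block. Cd86 reached -0.43 and -0.034, and -0.086 and -0.0072 with the block, and Icosl 0.46 and 0.00012, and 0.46, 0.26 and 0.020 with the block. When 1 library was left out, the PBS stage difference of Cd274 lay between -0.0075 (without embryonic PBS replicate 3) and 0.72, and the LPS stage difference of Cd80 between -0.87 (without embryonic LPS replicate 3) and 0.59. With the longest transcript as length, the share of Cd274 was 8.75% in adult PBS and 25.1% in embryonic LPS. That of Icosl was then 14.2% in embryonic LPS, against 9.94%, and 11.7% in adult LPS, against 8.15%. Cd83 then stood at 14.7% in embryonic LPS, against 16.1%. Why these values moved was not tested.

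The p-values rest on 3 cultures in each stage, and the low counts of Cd83, Cd86 and Pdcd1lg2 in adult PBS limit their fold changes. Transcript levels give no measure of protein on the cell surface.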
